A study of Mus musculus with 4 samples.

Results

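The 32 genes described here encode parts of the primary cilium and of intraflagellar transport, the traffic along it. They were taken by symbol from the 24907 genes of the count table, and all 32 had a row. RNA-seq counts came from ASZ001, an established murine line of basal cell carcinoma (BCC). The control cells carried an empty doxycycline-inducible vector and the c-FOS cells such a vector with c-FOS, and all 4 samples were treated with Dox. Each group had 2 libraries, labelled replicates 1 and 2. Whether replicates were separate cultures is not in the labels. Each p-value below therefore rests on the spread between these samples alone, partly pooled over genes, and that spread may be technical. No library of c-FOS vector cells without Dox was analysed here, so an effect of c-FOS and other differences between the 2 kinds of cell cannot be told apart. The sources used here do not say whether the cells were cycling, confluent or ciliated at harvest. The series title places the experiment in work on the change from basal to squamous cell carcinoma, and the comparison asks which cilium transcripts differ between c-FOS and control cells.

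The primary cilium is a single antenna-like projection that grows from the mother centriole of most resting vertebrate cells. Its proteins are carried in and out by trains of the IFT-A and IFT-B complexes, moved outward by kinesin-2 and back by dynein-2, and the BBSome rides on these trains as an adaptor for membrane proteins. A gate of protein complexes at its base, the transition zone, limits what enters. Vertebrate Hedgehog signalling, the pathway that drives BCC, is relayed through the cilium, which is taken apart before cells divide.

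The libraries held 28405433 to 32465409 counts. Fos itself was at 0.404 and 0.351 CPM (counts per 1000000 of the TMM-adjusted library size) in the control libraries and at 296.8 and 313.4 CPM in the c-FOS libraries, as their labels say. Defining keratins of the labelled cell type were abundant in every library, with Krt5 at 3732 CPM or more and Krt14 at 4798 CPM or more. Of the markers of other cell types, 4 of 8 fibroblast, 3 of 7 leukocyte, 4 of 6 endothelial and 2 of 5 melanocyte genes were high enough to be tested. Of these, 3 fibroblast genes rose and 0 fell, 3 leukocyte genes rose and 0 fell, 3 endothelial genes rose and 1 fell, and 0 of the 2 melanocyte genes passed. Their summed levels lay at 5.4 to 5.65 CPM in control against 17.6 to 19.1 CPM in c-FOS libraries for fibroblast, 17.0 to 18.8 against 41.4 to 44.9 CPM for leukocyte, and 116.8 to 117.3 against 214.1 to 218.9 CPM for endothelial markers. For melanocyte markers they were 49.4 to 51.7 against 48.5 to 51.2 CPM. The leukocyte-list gene Csf1r went from 0.387 and 0.224 to 18.4 and 18.5 CPM, and the fibroblast-list genes Pdgfra from 4.24 and 4.23 to 11.3 and 11.9 CPM, Col1a2 from 0.471 and 0.607 to 2.98 and 3.91 CPM and Pdgfrb from 0 counts in both controls to 2.71 and 2.65 CPM. The endothelial-list gene Flt1 went from 29.2 and 32.6 to 113.1 and 109.5 CPM. In the other direction, Egfl7, the endothelial-list gene that fell, went from 4.34 and 3.88 to 2.86 and 2.34 CPM. The fibroblast-list gene Dcn, too low to be tested, went from 0.286 and 0.591 to 0.144 and 0.113 CPM. Thy1, Cd3e, Kdr, Tyr and Mlana were at 0 counts in all 4 libraries, Ptprc was at or below 0.0899 CPM and Cdh5 at or below 0.0359 CPM, and the part of such cells in the results was not tested. In bulk RNA, fewer cells with a transcript and less of it per cell cannot be told apart.

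All 32 cilium genes were expressed in the control cells, and most differed little between the groups. Of the 32, all of which passed the filter on low counts, 10 rose, 11 fell and 11 did not pass at 0.05 after Benjamini-Hochberg adjustment over all 12791 genes tested (quasi-likelihood F test of edgeR). The share that changed, 65.6%, lay next to the 67.1% called among all tested genes, where 33.8% rose and 33.3% fell. The sizes were small: 21 of the 32 genes (65.6%) lay within 0.32 of no change on the log2 scale, against 50.6% of all tested genes, and the median absolute log2 fold change was 0.22, against 0.32. Only Tctn2 and Bbs5 passed with a rise of at least 1.5-fold, and 0 of 32 passed with a fall of that size, where the background was 13.8% in each direction. Tctn2 alone rose by at least 2-fold, where the background was 7.73%, and 0 of 32 fell by that much, where it was 7.71%. The values of the groups did not overlap for 26 of the 32 genes, against 83.6% of all tested genes.

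The balance of rises and falls depended on the scaling between libraries. When library totals replaced the TMM factors, which moved the median log2 fold change of all tested genes from -0.01 to -0.14, 5 cilium genes rose and 16 fell, so 23.8% of the calls were rises in place of 47.6% (35.4% in place of 50.3% over all tested genes). With upper-quartile factors 6 rose and 11 fell (35.3% rises, 43.0% over all tested genes). Without c-FOS replicate 2 fewer genes passed, with 6 rises and 8 falls among the cilium genes (42.9% rises) and 3698 and 3481 over all genes (51.5% rises). No gene that changed took the opposite sign under any alternative run. The calls of 13 genes, 5 that rose (Tctn2, Bbs5, B9d2, Kif3b and Kif3a) and 8 that fell (B9d1, Tmem231, Ift81, Ift80, Bbs2, Ift52, Rpgrip1l and Ift122), held in all 12 alternatives other than the fold threshold. The calls of the other 8, Ift88, Ift20, Ift57, Bbs7, Bbs9, Mks1, Cep290 and Dync2h1, were each lost in at least 1 of them.

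**Figure D1:**
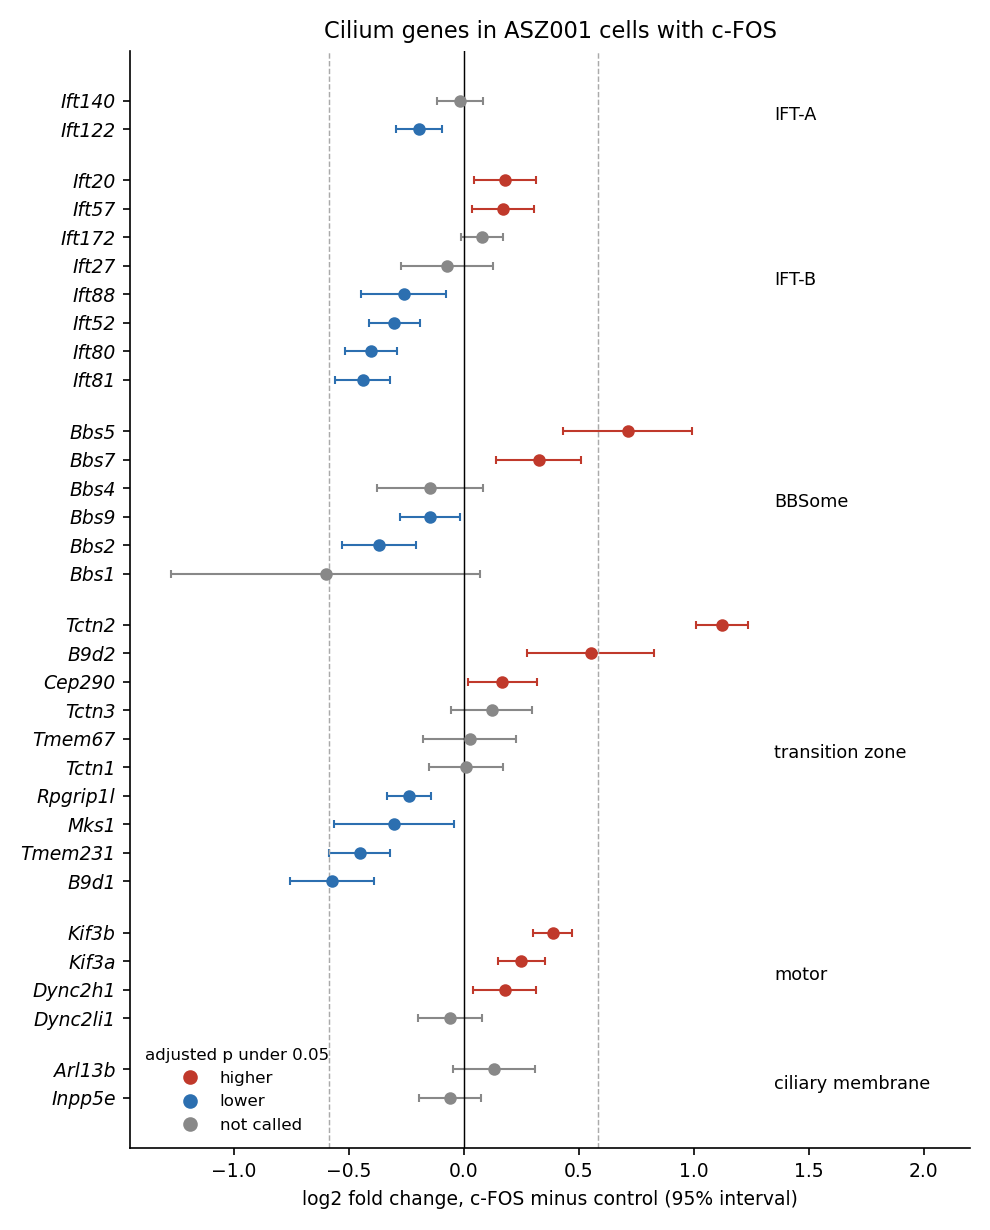
Log2 fold changes of the 32 cilium genes by group, c-FOS minus control, with 95% intervals from the quasi-likelihood fit, coloured by call at an adjusted p of 0.05. Dashed lines mark 1.5-fold. Tctn2 and Bbs5 are the 2 called genes past a dashed line.

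The promoters of these genes were compared because RFX transcription factors, known regulators of cilium genes, bind a site called the X-box, and c-FOS acts through the AP-1 motif. RefSeq promoter windows (GRCm38.p6, from 250 bases before the start to 50 after it) were at hand for 27 of the 32 genes, as 29 windows. The counts rest on mm9, so the windows are matched by symbol only. The X-box was searched on both strands as GTTNCC and GGNAAC with 0 to 3 bases between them. It lay in 5 of 29 windows (17.2%), against 0.804% of all 32851 promoter windows and 0.875% of the 12571 windows of tested genes. The single RFX motif GTTGCC, searched on both strands and contained in each of the 5 X-boxes found, lay in 18 windows (62.1%), against 12.5% of all windows and 12.8% of those of tested genes. The AP-1 motif TGANTCA lay in 2 windows (6.90%), against 7.81% of all and 5.47% of those of tested genes. A match is a description of the letters, not a site of binding.

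The 5 X-boxes are shown, in capitals, with up to 15 bases on each side, on the strand of the gene, to let the 2 arms of the motif be compared. Counted from the start base as 0, their first bases lie at -121 in Bbs7 (window chr3:36613340-36613639, minus strand), -24 in Mks1 (chr11:87852965-87853264, plus strand) and -60 in Ift57 (chr16:49699044-49699343, plus strand). They lie at -140 in Tctn3 (chr19:40612182-40612481, minus strand) and at 36 in Tctn1 (chr5:122264411-122264710, minus strand).
Bbs7: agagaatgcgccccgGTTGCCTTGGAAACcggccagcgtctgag
Mks1: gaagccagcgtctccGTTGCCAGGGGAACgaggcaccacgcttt
Ift57: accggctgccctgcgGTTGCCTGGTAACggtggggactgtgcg
Tctn3: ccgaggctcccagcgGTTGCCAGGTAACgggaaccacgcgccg
Tctn1: cgctaggctgtgactGTTGCCCGGGCAAC
Within each arm the search leaves only the base written N free. At that base the first arm reads G in each X-box, while the second arm varies. Of the 5 genes, Bbs7 and Ift57 rose, Mks1 fell, and Tctn1 and Tctn3 did not pass.

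Longer windows, from 180 bases before the start through the first 30 bases from it on, are given for the 2 genes that rose most, Tctn2 (chr5:124598569-124598778, plus strand) and Bbs5 (chr2:69646991-69647200, plus strand), and for the 2 that fell most among those called, B9d1 (chr11:61504964-61505173, plus strand) and Tmem231 (chr8:111933784-111933993, minus strand). Capitals mark the AP-1 motif and the single RFX motif, which is GGCAAC where it lies on the other strand.
Tctn2: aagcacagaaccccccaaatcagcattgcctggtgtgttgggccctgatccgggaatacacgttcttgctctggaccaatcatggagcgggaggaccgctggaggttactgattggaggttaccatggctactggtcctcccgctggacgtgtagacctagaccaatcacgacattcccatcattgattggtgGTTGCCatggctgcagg
Bbs5: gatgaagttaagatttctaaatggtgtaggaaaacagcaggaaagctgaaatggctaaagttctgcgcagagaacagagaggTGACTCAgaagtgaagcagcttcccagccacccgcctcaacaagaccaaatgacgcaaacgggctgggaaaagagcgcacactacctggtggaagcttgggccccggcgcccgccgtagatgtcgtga
B9d1: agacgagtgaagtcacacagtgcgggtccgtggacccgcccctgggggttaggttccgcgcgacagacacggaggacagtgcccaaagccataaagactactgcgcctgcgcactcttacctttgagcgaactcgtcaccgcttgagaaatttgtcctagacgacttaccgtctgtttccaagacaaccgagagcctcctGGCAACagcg
Tmem231: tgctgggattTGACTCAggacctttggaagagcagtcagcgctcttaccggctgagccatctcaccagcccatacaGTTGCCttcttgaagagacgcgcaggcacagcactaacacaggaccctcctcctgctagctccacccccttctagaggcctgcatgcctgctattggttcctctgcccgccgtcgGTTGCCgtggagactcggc
Bbs5 and Tmem231 held the AP-1 motif, as TGACTCA, and these 2 genes moved in opposite directions. The Bbs5 window holds its RFX motif 42 bases after the start, beyond the bases shown. Among the 18 genes with the single RFX motif, 7 rose, 4 fell and 7 did not pass, where 33.8% of all tested genes rose and 33.3% fell. Whether the motif goes with a direction was not tested.

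The transition zone genes held both the highest and the lowest called fold change of the 32. Of 10 genes, 3 rose (Tctn2, B9d2 and Cep290), 4 fell (B9d1, Tmem231, Mks1 and Rpgrip1l) and 3 did not pass. Of all tested genes 33.8% rose and 33.3% fell. The median log2 fold change of the 10 genes, 0.02, was -0.12 when scaled by library totals and -0.04 by upper-quartile factors. Tctn2 encodes a tectonic, one of 3 related proteins of the gate that carries Meckel syndrome proteins. It was at 45.4 and 40.8 CPM in the control and 94.7 and 92.8 CPM in the c-FOS libraries. Both c-FOS libraries stood above both controls by about the control level itself, a log2 fold change of 1.12 ± 0.05 (SE, n = 2 per group; adjusted p = 2.28e-10, edgeR), or 2.18-fold. The other tectonics did not pass: Tctn1 was at 19.2 and 20.1 CPM in control and 19.8 and 19.9 CPM in c-FOS libraries. Tctn3 was at 21.3 and 18.7 against 21.8 and 21.7 CPM, a log2 fold change of 0.12 that passed only without control replicate 1 (0.22). In the GENCODE M21 annotation, 27.5% of the exonic bases of Tctn1 lie over exons of Hvcn1 on the opposite strand, and the strand setting of the counting is not given, so its value is uncertain.

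B9d1 and B9d2 encode partner proteins of one subcomplex of the gate, and their transcripts moved in opposite directions. B9d1 fell from 20.4 and 18.3 CPM in control to 13.3 and 12.8 CPM in c-FOS libraries, by 0.57 ± 0.09 (SE) on the log2 scale or 1.49-fold (adjusted p = 4.06e-05 in edgeR's test). B9d2 rose from 6.36 and 4.92 CPM to 7.998 and 8.44 CPM, a log2 fold change of 0.55 ± 0.13 (SE; adjusted p = 0.00171 in the same test). The groups did not overlap for either gene, as for 83.6% of all tested genes, and both B9d1 and B9d2 lay just under the 1.5-fold line. Mks1, the third B9-domain gene, went from 7.46 and 6.39 to 5.52 and 5.67 CPM, a fall of 0.30 ± 0.12 on the log2 scale with an adjusted p of 0.0406 in edgeR's test. That call was lost without control replicate 1 (-0.19), without c-FOS replicate 1 (-0.28), without c-FOS replicate 2 (-0.32), in DESeq2 and in limma-voom. Tmem231, a membrane protein of the gate, fell from 38.03 and 36.7 CPM to 27.2 and 27.5 CPM (-0.45 ± 0.06). Rpgrip1l, a scaffold that anchors other gate proteins, fell from 73.7 and 72.3 to 61.8 and 62.0 CPM (-0.24 ± 0.04). Both falls were far larger than the gap between replicates.

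Cep290, which links the gate to the microtubules, was at 35.0 and 41.1 CPM in control and 42.9 and 42.6 CPM in c-FOS libraries, with a log2 fold change of 0.17 ± 0.07 (SE; adjusted p = 0.0474 in edgeR's test). The 2 control libraries differed more from each other than the second control did from the c-FOS libraries. The call was lost on leaving out control replicate 1 (0.06), c-FOS replicate 1 (0.17) or c-FOS replicate 2 (0.18), and with library totals, upper-quartile factors, a stricter filter or DESeq2, and the value was 0.29 without control replicate 2. Tmem67, the membrane receptor-like protein meckelin, had overlapping values of 12.2 and 12.9 against 13.7 and 12.0 CPM and did not pass. Exons of other genes lie opposite 9.45% of the exonic bases of Cep290 and 9.92% of those of Tmem67.

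**Figure D2:**
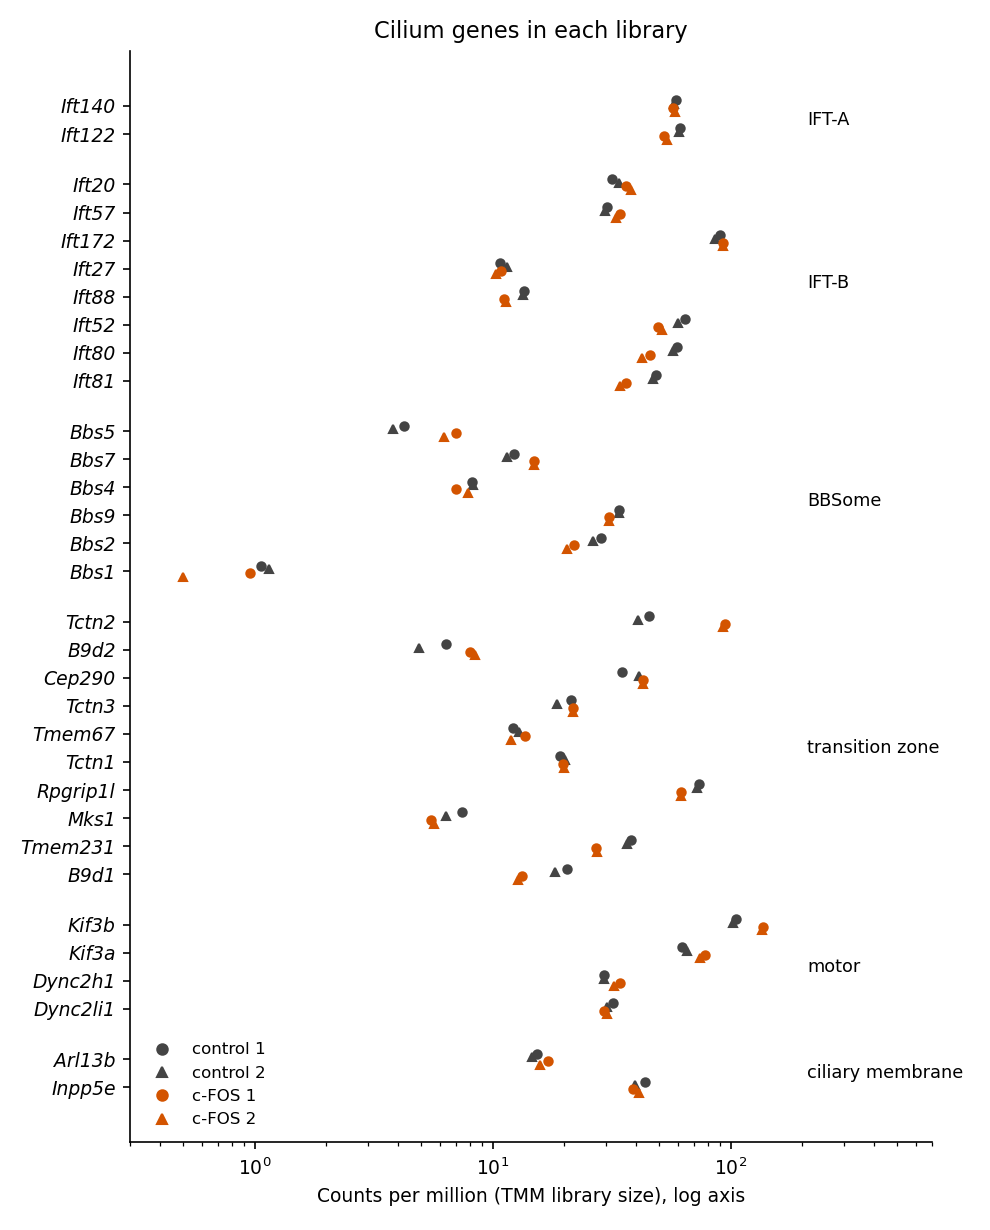
CPM of each cilium gene in each library on a log axis, grouped by complex. Circles and triangles are replicates 1 and 2, grey is control and orange c-FOS. For Tctn2 both c-FOS libraries lie above 90 CPM and both controls below 46, whereas for most other genes the 4 points lie close together.

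Among the IFT-B genes, which build the outward trains, 4 of 8 fell, 2 rose and 2 did not pass. Of all tested genes 33.3% fell and 33.8% rose. The median of the 8 genes was -0.17 on the log2 scale. The 2 rises were lost with library totals and upper-quartile factors, where 4 fell and 0 rose. Ift81, a subunit that binds tubulin as cargo, fell from 48.5 and 47.0 CPM in control to 36.3 and 34.2 CPM in c-FOS libraries, by 0.44 ± 0.06 (SE) on the log2 scale (adjusted p = 9.25e-06 in edgeR's test). Ift80, in which mutations cause a skeletal ciliopathy, fell from 59.3 and 57.3 to 45.7 and 42.6 CPM (-0.40 ± 0.05). Ift52, a core subunit, fell from 64.5 and 60.0 to 49.7 and 51.3 CPM (-0.30 ± 0.05). In each of these 3 genes the lowest control value stood above the highest c-FOS value. The groups did not overlap for 83.6% of all tested genes.

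Ift88, the core subunit most often deleted to remove cilia in mice, was at 13.6 and 13.4 CPM in control and 11.2 and 11.3 CPM in c-FOS libraries, a fall of 0.26 ± 0.09 on the log2 scale (adjusted p = 0.0153 in edgeR's test). It did not pass in DESeq2, without c-FOS replicate 1 (-0.25) or without c-FOS replicate 2 (-0.27). Ift20, which also sits at the Golgi and sorts membrane proteins to the cilium, was at 31.6 and 34.0 against 36.4 and 38 CPM (0.18 ± 0.06). Ift57 was at 30.2 and 29.6 against 34.4 and 33.0 CPM (0.17 ± 0.06). These rises of about 1.13-fold were lost without c-FOS replicate 2 for both genes (Ift20 0.15, Ift57 0.21), without control replicate 1 for Ift20 (0.13) and without c-FOS replicate 1 for Ift57 (0.14). Ift172, the subunit at which trains turn round at the tip, went from 89.9 and 85.8 to 92.7 and 93.2 CPM and did not pass (0.08), although it passed without control replicate 1 (0.12). Ift27, a small GTPase of the complex, overlapped between the groups at 10.7 and 11.5 against 10.8 and 10.3 CPM.

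By subcomplex, the core set here (Ift88, Ift52, Ift81 and Ift27) had 3 falls and 0 rises among 4, and the peripheral set (Ift80, Ift172, Ift57 and Ift20) had 1 fall and 2 rises among 4. Of all tested genes 33.3% fell and 33.8% rose. The sets are small and the calls of Ift88, Ift20 and Ift57 were lost in some alternatives, so no difference between the sets is drawn. Of the other 11 IFT-B genes, 10 were tested, 2 rose, 3 fell and 5 did not pass (1 rise and 3 falls by library totals). Ttc26, known as a subunit of the core set, rose by 0.48, while Ttc30a1 (-0.32) and Hspb11 (-0.30), also core subunits, fell with calls that were lost in DESeq2, without control replicate 2 (-0.22 and -0.17) and without c-FOS replicate 2 (-0.35 and -0.23). The Ttc30a1 call was lost without c-FOS replicate 1 too (-0.29). Reads of Ttc30a1 may be shared with its close copies Ttc30a2 and Ttc30b.

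IFT-A serves the return trip and the entry of membrane proteins, and 1 of its 2 genes fell, where 33.3% of all tested genes fell. Ift122 fell from 61.2 and 60.6 CPM to 52.6 and 53.8 CPM, by 0.19 ± 0.05 on the log2 scale (adjusted p = 0.00206 in edgeR's test). Ift140 was at 59.0 and 57.9 against 57.0 and 58.6 CPM, and its 95% interval ran from -0.12 to 0.08 on the log2 scale. With library totals both genes fell. Of 5 other genes of this module, Wdr19 rose (0.18) and Tulp3 fell, and 3 did not pass (0 rises and 2 falls by library totals or upper quartiles). Tulp3, an adaptor that uses IFT-A to bring receptors into the cilium, went from 366.4 and 348.9 to 221.4 and 220.8 CPM (-0.69 ± 0.04). The Wdr19 call was lost with library totals (0.04), with upper-quartile factors and without c-FOS replicate 1 (0.14).

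The BBSome genes moved in both directions, with 2 rises, 2 falls and 2 of 6 that did not pass, or 1 rise and 4 falls with library totals. The share called in the main test, 66.7%, lay next to the 67.1% of all tested genes, where 33.8% rose and 33.3% fell. Bbs5, a subunit that binds phosphoinositides, rose from 4.25 and 3.80 CPM in control to 6.99 and 6.23 CPM in c-FOS libraries, a log2 fold change of 0.71 ± 0.13 (SE) or 1.64-fold (adjusted p = 0.000262 in edgeR's test). Bbs7, a beta-propeller subunit, rose from 12.3 and 11.5 to 14.99 and 14.9 CPM (0.33 ± 0.09), or by 0.19 with library totals, where it did not pass. Bbs2, which pairs with Bbs7 in the complex, fell from 28.5 and 26.3 to 22.0 and 20.5 CPM (-0.37 ± 0.07). All 3 sets of values were separate between the groups, as were those of 83.6% of all tested genes.

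Bbs9 fell from 34.1 and 34.0 to 30.7 and 30.8 CPM, by 0.15 ± 0.06 on the log2 scale. Its adjusted p of 0.0436 in edgeR's test was between 0.000801 and 0.232 over the 12 alternatives, and the call was lost in 7 of them. These were RLE factors, no filter, DESeq2 and the replicate block, and leaving out control replicate 2 (-0.15), c-FOS replicate 1 (-0.14) or c-FOS replicate 2 (-0.15). With the replicate block the adjusted p was 0.0617 in edgeR's test. Bbs4 was at 8.205 and 8.30 against 6.99 and 7.88 CPM and did not pass (-0.15, adjusted p = 0.24 in the same test). Bbs1, the subunit that binds the GTPase Arl6, was the gene of lowest level, with 31.5 and 36 counts in control and 26.5 and 15.5 counts in c-FOS libraries, or 1.06 and 1.15 against 0.953 and 0.5004 CPM. Its log2 fold change of -0.60 had a 95% interval of -1.27 to 0.07, so a fall of more than 2-fold and no change were both within the error. Without c-FOS replicate 1 the Bbs1 value was -1.10 and without c-FOS replicate 2 it was -0.20. The adjusted p ran from 0.0374 to 0.69 over these and the other alternatives, DESeq2 and limma-voom included. Of 7 other genes of the BBSome and its assembly, Bbs12 rose (0.59), Bbs10 fell (-0.89) and 5 did not pass (1 rise and 3 falls by library totals, 1 and 2 by upper quartiles). Of all tested genes 67.1% were called. Bbs10 and Bbs12 are both chaperonin-like proteins that help assemble the BBSome, and they moved in opposite directions.

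Of the 4 motor genes, 3 rose and 0 fell, where 33.8% of all tested genes rose. With library totals 2 rose (Kif3b and Kif3a) and Dync2li1 fell. Kif3b, a motor subunit of kinesin-2, rose from 105.8 and 102.8 CPM in control to 136.7 and 136.0 CPM in c-FOS libraries, a log2 fold change of 0.39 ± 0.04 (SE; adjusted p = 9.35e-07 in edgeR's test). Kif3a, its usual partner in the motor, rose from 62.5 and 65.7 to 78.1 and 74.6 CPM (0.25 ± 0.05), and by 0.11 with library totals. Both subunits of the outward motor were thus higher in each c-FOS library than in each control. The groups did not overlap for 83.6% of all tested genes. Dync2h1, the heavy chain of the return motor, was at 29.5 and 29.5 against 34.3 and 32.4 CPM (0.18 ± 0.06). Its call was lost without c-FOS replicate 1 (0.14), without c-FOS replicate 2 (0.22), with library totals (0.04), with upper-quartile factors and in DESeq2. Dync2li1, the light intermediate chain of that motor, did not pass at 32.1 and 30.1 against 29.3 and 30.3 CPM.

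Among 9 other motor genes, 8 were tested, 4 rose and 3 fell (2 rises and 3 falls by library totals). Of all tested genes 33.8% rose and 33.3% fell. Kif3c, another kinesin-2 motor subunit, rose from 37.3 and 37.4 to 61.4 and 63.6 CPM (0.74 ± 0.05). Wdr34, an intermediate chain of dynein-2, fell by 0.49, and Dynll2, a light chain shared with other motors, fell by 0.46 on the log2 scale. The summed level of the 4 motor members was 229.9 and 228.1 CPM in the control and 278.4 and 273.3 CPM in the c-FOS libraries. That difference of 20.5% was 9.54% with library totals. The summed IFT-B level fell over the same libraries from 348.5 and 338.7 to 317.1 and 313.9 CPM, a change of -8.18%, or -16.5% with library totals.

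The ciliary membrane genes Arl13b and Inpp5e did not pass. Arl13b encodes a lipid-anchored GTPase that recruits Inpp5e, a phosphatase that keeps the phosphoinositides of the ciliary membrane distinct. Arl13b was at 15.3 and 14.7 against 17.1 and 15.8 CPM, with a 95% interval of -0.05 to 0.31 on the log2 scale. Inpp5e was at 43.9 and 39.6 against 38.8 and 41.2 CPM, with an interval of -0.20 to 0.07. It passed as lower without control replicate 2 (-0.13) and with library totals, and exons of Pmpca lie opposite 21.1% of its exonic bases. Over all 11 genes that did not pass, the 95% interval lay within 0.32 of 0 for 9, the exceptions being Bbs1 and Bbs4. In the list of ciliary membrane traffic, 12 of 14 genes were tested, 5 rose, 0 fell and 7 did not pass. The share called, 41.7%, was below the 67.1% of all tested genes, where 33.8% rose and 33.3% fell. Rab11a, a GTPase of recycling endosomes, rose by 0.64, and Rab3ip, the exchange factor that acts after it on Rab8, by 0.32. Adcy3, the adenylyl cyclase of primary cilia, rose by 0.29, and its call was lost with library totals, upper-quartile factors and DESeq2, without control replicate 1 (0.27) and without c-FOS replicate 2 (0.20). With library totals, 3 genes of that list rose and 3 fell, and with upper-quartile factors 4 rose and 1 fell.

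Levels of different genes were compared as CPM per kilobase of the deposited gene model length. In control cells they ran from 0.198 for Bbs1 to 29.1 ± 1.49 (SD, n = 2) for Ift20. Ift20 and Ift52 (27.9 ± 1.42) headed the order and did not differ beyond their spread, nor did B9d1 (24 ± 1.84) and Dync2li1 (23.7 ± 1.08), the next 2. Tctn2 was sixth in control at 16.4 ± 1.23 and first with c-FOS at 35.7 ± 0.516 CPM per kilobase, next to Ift20 at 33.0 ± 1.02. B9d1 went from place 3 to place 7, at 16.1 ± 0.405 with c-FOS. The ratio of Tctn2 to Tctn1 on this scale was 3.65 and 3.13 in control and 7.38 and 7.22 in c-FOS libraries, with the Tctn1 value uncertain for the overlap with Hvcn1. The ratio of Tctn2 to Tctn3, which has no such overlap, was 2.196 and 2.255 in control and 4.489 and 4.413 in c-FOS libraries. The ratio of B9d1 to B9d2 was 3.95 and 4.59 in control and 2.04 and 1.86 in c-FOS libraries. These within-library ratios do not depend on the scaling between libraries. Dync2h1, at 2.12 CPM per kilobase, was 11.2 ± 0.513 times lower than Dync2li1 in control cells. Bbs1 was the lowest in both groups, and Bbs5 went from place 30 to place 25.

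**Figure D3:**
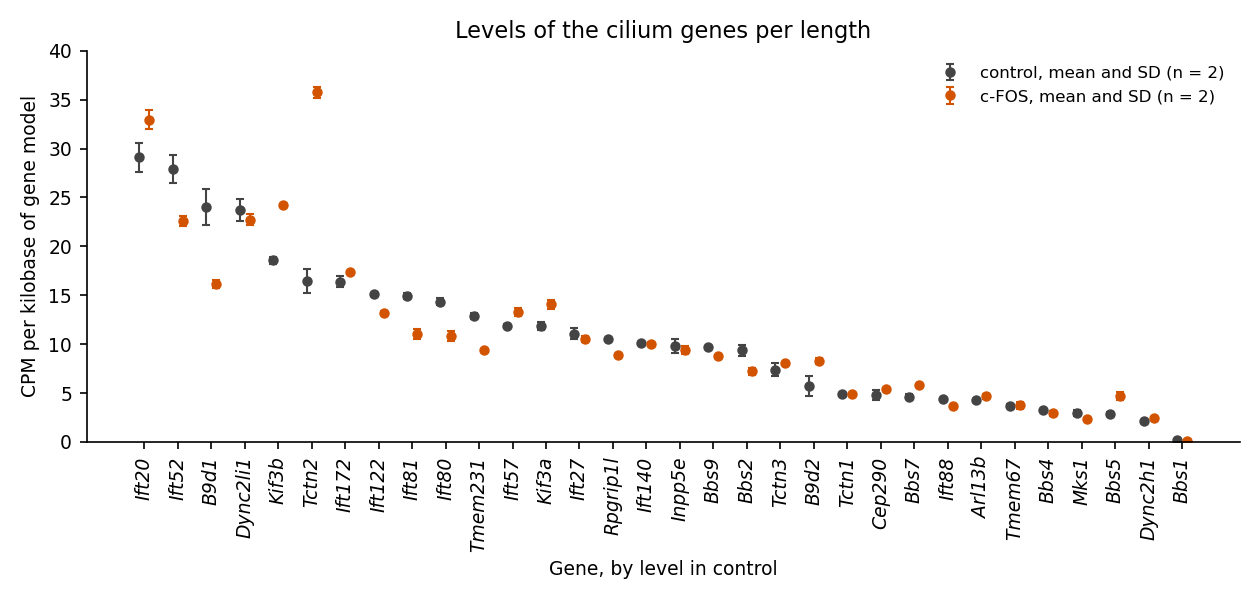
CPM per kilobase of gene model for the 32 genes, in the order of the control level, as mean and SD of 2 libraries per group. Tctn2 stands at 35.7 with c-FOS against 16.4 in control, and B9d1 at 16.1 against 24.

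Outside the 32 genes, the cilium lists differed in how far their genes moved. The other members of the same complexes numbered 44, and 42 were tested. Among these 12 fell, 10 rose and 20 did not pass, and the median was -0.01 on the log2 scale. The share called, 52.4%, was below the 67.1% of all tested genes. The transition zone list held the lowest fold change among the 42, with 2 rises and 4 falls in 12 genes (0 rises and 5 falls by library totals). Tmem107, a membrane protein of the gate, fell from 20.8 and 21.9 to 10.7 and 11.2 CPM (-0.96 ± 0.08), and Cc2d2a, a scaffold at its base, fell from 43.0 and 46.7 to 25.2 and 23.8 CPM (-0.87 ± 0.07). Among the 10 transition zone members the lowest called value was that of B9d1 (-0.57).

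Genes of the basal body and centriole, from which the cilium grows, had 11 falls and 2 rises among 18, with 5 that did not pass and a median of -0.20, where 33.3% of all tested genes fell. By library totals 16 fell and 1 rose (median -0.33), and by upper quartiles 14 fell and 1 rose. Ssx2ip, a centriolar satellite protein, fell from 122.0 and 120.1 to 59.5 and 55.2 CPM (-1.08 ± 0.05), and Odf2, of the appendages of the mother centriole, fell by 0.71. Poc1a, a centriole protein, was low and fell from 4.17 and 5.88 to 2.82 and 1.68 CPM (-1.17 ± 0.22). The list for taking the cilium apart had 7 falls and 2 rises among 9 genes, where 33.3% of all tested genes fell and 67.1% were called. Counted among the falls of that list is the DNA repair gene Trp53bp1 (-0.26), which is not a disassembly gene as such. The 2 that rose were Hdac6, by 0.50, and Kif2a, by 0.28 on the log2 scale. Aurka, the kinase that starts disassembly, fell from 63.9 and 68.1 to 16.5 and 14.0 CPM (-2.12 ± 0.07), Plk1 fell by 2.34 and Nek2 by 2.26 on the log2 scale.

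These last genes are also genes of dividing cells. Of 17 cell cycle genes, 17 fell, with a median of -2.10, and their summed level was 1573 and 1813 CPM in control and 463.7 and 410.3 CPM in c-FOS libraries. Basal keratinocyte markers moved too: 8 of 10 fell and 1 rose, where 33.3% of all tested genes fell and 33.8% rose. The summed levels of these markers were 30774 and 30731 against 14642 and 15106 CPM. The part of either shift in the values of the cilium genes was not tested.

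**Figure D4:**
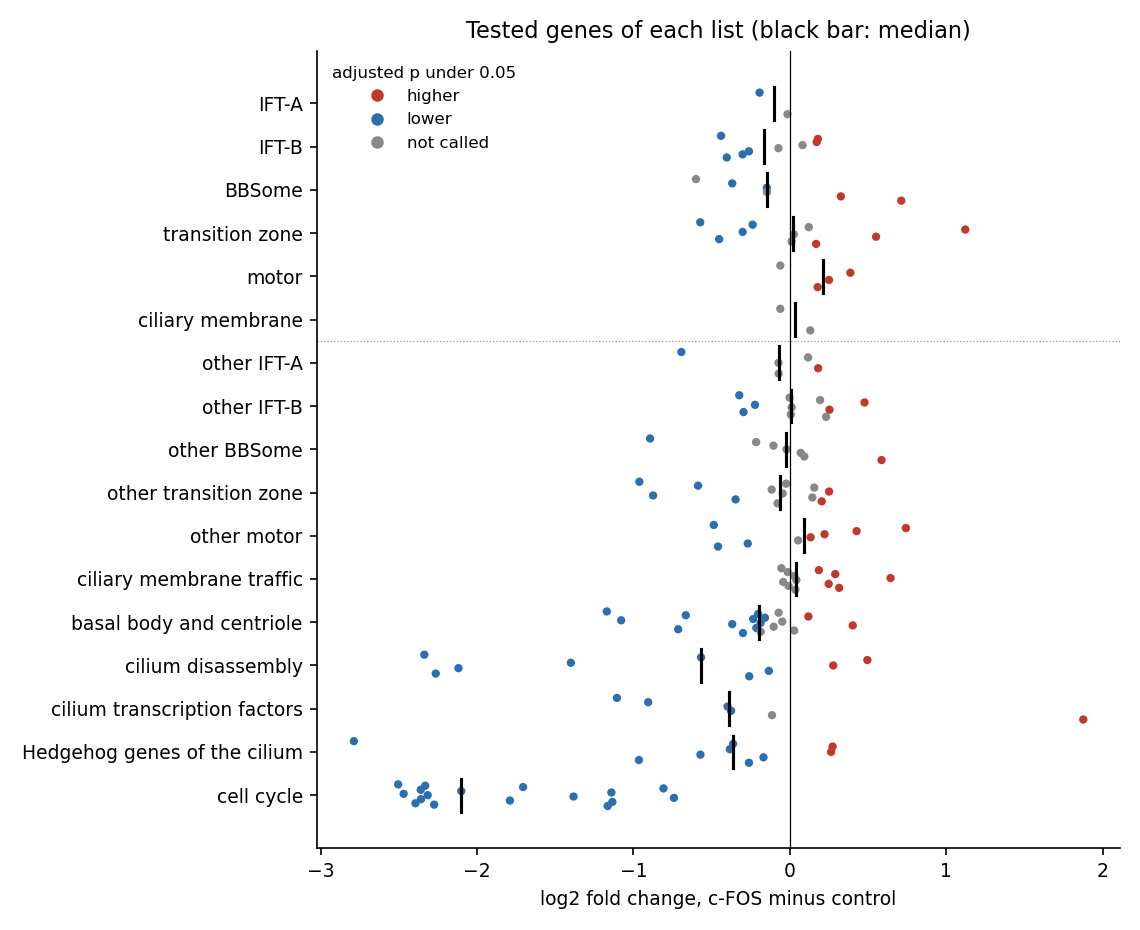
Log2 fold changes of the tested genes of the 6 groups of cilium genes (above the dotted line) and of the other lists, with the median as a black bar and the call by colour. The medians of the 6 groups lie between -0.17 and 0.21. The disassembly, cell cycle and Hedgehog lists each hold values below -2, and their medians are -0.57, -2.10 and -0.36.

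Among the transcription factors of cilium genes, 6 of 10 were tested, 1 rose, 4 fell and 1 did not pass. Of all tested genes 33.8% rose and 33.3% fell. Foxj1, the master regulator of motile cilia, rose from 12.6 and 12.1 CPM in control to 48.9 and 42.0 CPM in c-FOS libraries, a log2 fold change of 1.88 ± 0.08 (SE; adjusted p = 1.41e-10 in edgeR's test) or 3.67-fold. Rfx2 and Rfx3, X-box factors with known roles in cilium formation, fell from 25.8 and 24.8 to 12.0 and 11.5 CPM (-1.11 ± 0.08) and from 19.7 and 19.8 to 15.2 and 15.2 CPM (-0.38 ± 0.08). Rfx5, known as an activator of MHC class II genes, fell by 0.91 and Rfx7 by 0.40. Rfx1 did not pass at 38.1 and 36.4 against 35.0 and 33.8 CPM (-0.11), but did without control replicate 2 (-0.15) and under both library totals and upper-quartile scaling. Rfx4, Rfx6, Gmnc and Mcidas, the last 2 being switches of multiciliated cells, were too low to be tested, with at most 0.27 CPM.

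The rise of Foxj1 was set beside the markers of multiciliated cells, in which it is known to act. Of the 14 genes of that list 4 were tested, of which Foxj1 and Ccdc39 rose and 0 fell. Of the 13 besides Foxj1, 12 had means under 1 CPM in both groups, and Tekt1 and Hydin were at 0 counts in all 4 libraries, where 3 counts would be 0.0958 to 0.108 CPM. Their summed level was 3.99 and 3.88 CPM in control and 4.26 and 5.17 CPM in c-FOS libraries. Ccdc39, which sets the spacing of dynein arms in motile cilia, was the 1 marker above that level and rose from 2.14 and 1.96 to 2.93 and 3.76 CPM (0.71 ± 0.18). The axonemal dynein genes Dnah5 and Dnah9 were at or below 0.0359 CPM in every library. These limits cover counting error only.

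**Figure D5:**
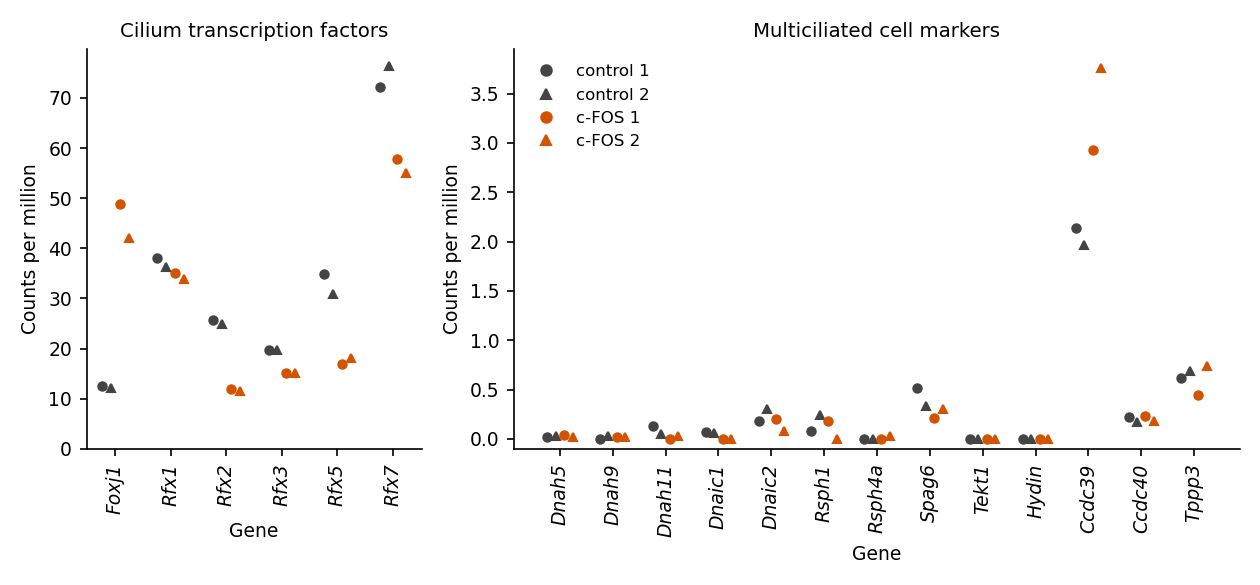
CPM per library of the cilium transcription factors (left) and of 13 multiciliated cell markers (right, with another scale). Foxj1 is at 12.1 to 12.6 CPM in control and 42.0 to 48.9 CPM in c-FOS libraries, and all markers but Ccdc39 lie under 1 CPM.

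Of 9 Hedgehog genes whose proteins act at or pass through the cilium, 7 fell and 2 rose. Of all tested genes 33.3% fell, 33.8% rose and 67.1% were called. With library totals 7 of the 9 fell and 1 rose. Gli1, a transcriptional target and effector of the pathway, fell from 15.1 and 15.03 to 2.34 and 2.03 CPM (-2.79 ± 0.12), and Gli2 by 0.97 and Sufu, the inhibitor that holds Gli proteins, by 0.57 on the log2 scale. Ptch1, the receptor and a second target, fell by less, from 16.7 and 17.1 to 13.05 and 13.2 CPM (-0.36 ± 0.08).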

How the data were processed

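RNA-seq was done on 4 libraries of ASZ001 cells, 2 per group, grouped by title. Per the labels' protocols, total RNA was made into Illumina TruSeq libraries; per the series design text, reads were aligned with TopHat and analysed with HOMER, and the submitters' processing notes also name mm9 and DESeq2. The sources used here give no version, annotation or strand setting. The authors deposited expected counts per gene, not normalized, in steps of 0.5, with a gene model length. Counts were rounded to the nearest whole number for testing, midpoints upward, and 2 rows with a repeated symbol were dropped.

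edgeR 4.0.16 (R 4.3.3) was used with TMM factors, filterByExpr (minimum count 10, minimum total 15) and a two-sided quasi-likelihood test between the 2 groups and no covariate, with Benjamini-Hochberg adjustment over 12791 genes at 0.05. SE and 95% intervals come from its F statistic. The spread of each gene was estimated in part from all tested genes, with 11.3 prior and 2 residual degrees of freedom. CPM uses unrounded counts over the effective library size. The code was tested on simulated data. Totals were 28405433, 29822437.5, 29200592 and 32465409 counts (control 1 and 2, c-FOS 1 and 2). Counts of replicates were not within sampling noise of each other (chi-square over its degrees of freedom 4.82 in control and 1.93 in c-FOS libraries). The alternatives were 3 scalings, 2 filters, DESeq2 1.42.0, limma-voom 3.58.1, the replicate number as a block, each library left out and a 1.5-fold threshold. Lists were described by counts and medians, with no list test. The 32 genes and the lists were chosen with earlier results of these data known. Named for their values were the genes past 1.5-fold, the highest and lowest of each group, up to 3 changed genes of each other list with the largest log2 fold change, the tested transcription factors, Fos, Gli1 and Ptch1, and values of the remaining members were added. Single marker genes of other cell types, and Hdac6, Kif2a and Trp53bp1, were picked after their values were seen. Some genes that these rules would name are not reported here.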

Additional observations from a re-analysis of the deposited data

How the results depend on the processing

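Of the 21 calls among cilium genes, 13 held in all 12 alternatives other than the fold threshold. The number that rose, 10, was 5 with library totals, 6 with upper-quartile factors, 6 in DESeq2 and 2 with the 1.5-fold threshold, and the number that fell, 11, was 0 with that threshold, where 1761 of all genes rose and 1769 fell in place of 4324 and 4265. The median log2 fold change of all tested genes moved from -0.01 to -0.14 with library totals and to -0.07 with upper-quartile factors. The 1.5-fold threshold removes smaller changes by its own rule. Why DESeq2 gave fewer rises was not tested. Leaving out 1 library at a time gave 6 to 10 rises and 8 to 11 falls among cilium genes, and 3698 to 4520 rises and 3481 to 4358 falls among all genes. With c-FOS or control left at 1 library, that library is assumed to vary like the other group. Genes that did not pass changed sign with library totals (Ift172 -0.056, Tmem67 -0.11, Tctn1 -0.13, Tctn3 -0.016 and Arl13b -0.0064) and with upper-quartile factors (Tmem67 -0.037 and Tctn1 -0.051). Over the libraries left out, the log2 fold change lay between -0.032 and 0.0079 for Ift140, -0.067 and 0.12 for Tmem67, -0.021 and 0.047 for Tctn1 and -0.13 and 0.015 for Inpp5e. With the replicate number as a block, 10 cilium genes rose and 10 fell, and 4246 and 4218 of all genes. The deviations of same-numbered libraries from their group means had a correlation of -0.07 across genes. With so few libraries this value cannot settle whether the numbers pair the samples. Bbs1 was not tested with a minimum count of 50. Depth limits Bbs1, whose libraries held 15.5 to 36 counts.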
